A study of Homo sapiens with 4 samples.

Results

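The 31 genes described here encode enzymes of cholesterol and fatty acid synthesis, the regulators that set the level of those enzymes, and proteins that move cholesterol within and out of the cell. They were chosen by symbol, by a rule that uses no measured value, though with earlier results of these data known. All 31 were found among the 58884 gene IDs of the table. All 31 also had a mean of at least 1 TPM (transcript abundance scaled by gene length and library total) over the 4 libraries, the filter that 14912 genes passed. The study sequenced RNA from TPC-1 and B-CPAP, which are established lines of human papillary thyroid carcinoma, to ask how transient heat alters thyroid cancer cells. One library came from TPC-1 cells kept in submerged flasks at 37 °C and 1 from TPC-1 at 40 °C, and B-CPAP gave 1 library at each temperature. The labels name no edited gene and no added agent for any group. The labels state the time at these temperatures as 15 min, 20 min and 24 h in different fields, so its length is not given here. Each is a tumour line kept in culture, and nothing in the labels says that a group was cultured more than once.

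Cells make cholesterol from acetyl-CoA through mevalonate, isoprenoid phosphates and squalene, and make fatty acids from the same acetyl-CoA. When sterols in the membrane of the endoplasmic reticulum run low, SCAP escorts the SREBP transcription factors to the Golgi, where they are cut and released to switch on most enzymes of both routes; the INSIG proteins hold SCAP back when sterols are plentiful. Tumour cells often keep both routes active, since growing membranes need sterols and lipids.

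The estimated depth was 20704725 to 24466573 reads per library, and genes encoded in mitochondria made up 16.8% and 19.9% of TPM in the TPC-1 libraries at 37 and 40 °C, and 22.0% and 23.9% in those of B-CPAP. Among markers of thyroid follicular cells, PAX8 stood between 98.9 and 284 TPM in all libraries and FOXE1 between 5.95 and 9.70 TPM. SLC5A5 was listed at 0 in all 4 libraries, TSHR reached at most 0.0135 TPM and TG 0.746 TPM, and NKX2-1 was listed at 0 in both TPC-1 libraries but reached 8.60 and 7.90 TPM with B-CPAP. SLC5A5, TSHR and TG, which serve hormone production, were thus at or near 0 in both lines. PTPRC and CD3E, which mark leukocytes, were listed at 0 in every library, and no endothelial marker passed 0.684 TPM.

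Levels per length differed widely among the 31 genes. SCD, the desaturase that turns saturated into monounsaturated fatty acids, stood highest in TPC-1, with 1080.2 TPM at 37 °C and 1035 TPM at the higher temperature. ACLY, which makes acetyl-CoA from citrate and so feeds both routes, stood highest in B-CPAP, at 734 and 701 TPM. FASN, the fatty acid synthase, had rank 4, 4, 3 and 4 among the 31 genes in the libraries, in the order TPC-1 at 37 and 40 °C, B-CPAP at 37 and 40 °C. The lowest member was the lanosterol demethylase CYP51A1 in TPC-1, at 3.05 and 2.01 TPM, and the sterol reductase TM7SF2 in B-CPAP, at 0.826 and 0.545 TPM. Exons of other genes, on the same strand and on the opposite one, cover 83.2% of the CYP51A1 exon bases. Its level is thus uncertain, also because the library kit does not mark strand. Exons of genes on the opposite strand cover part of ACAT2 (52.3% covered), FDPS (18.6%), HMGCS1 (15.0%) and IDI1 (14.8%), whose levels are uncertain in part. Together the 31 genes took 4098 and 3953 TPM in the TPC-1 libraries, against 2989 and 2881 TPM in those of B-CPAP. The widest gaps in TPM were those of SCD (377 and 415 TPM in B-CPAP) and NPC1 (363 and 378 TPM against 51.8 and 49.98 TPM). The enzymes from squalene to cholesterol summed to slightly more in B-CPAP (815 and 766 TPM) than in TPC-1 (799 and 748 TPM). The sums of the mevalonate enzymes, regulators, fatty acid enzymes and transport genes were lower in B-CPAP. In bulk RNA, fewer cells of a type and less RNA per cell cannot be told apart.

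**Figure D1:**
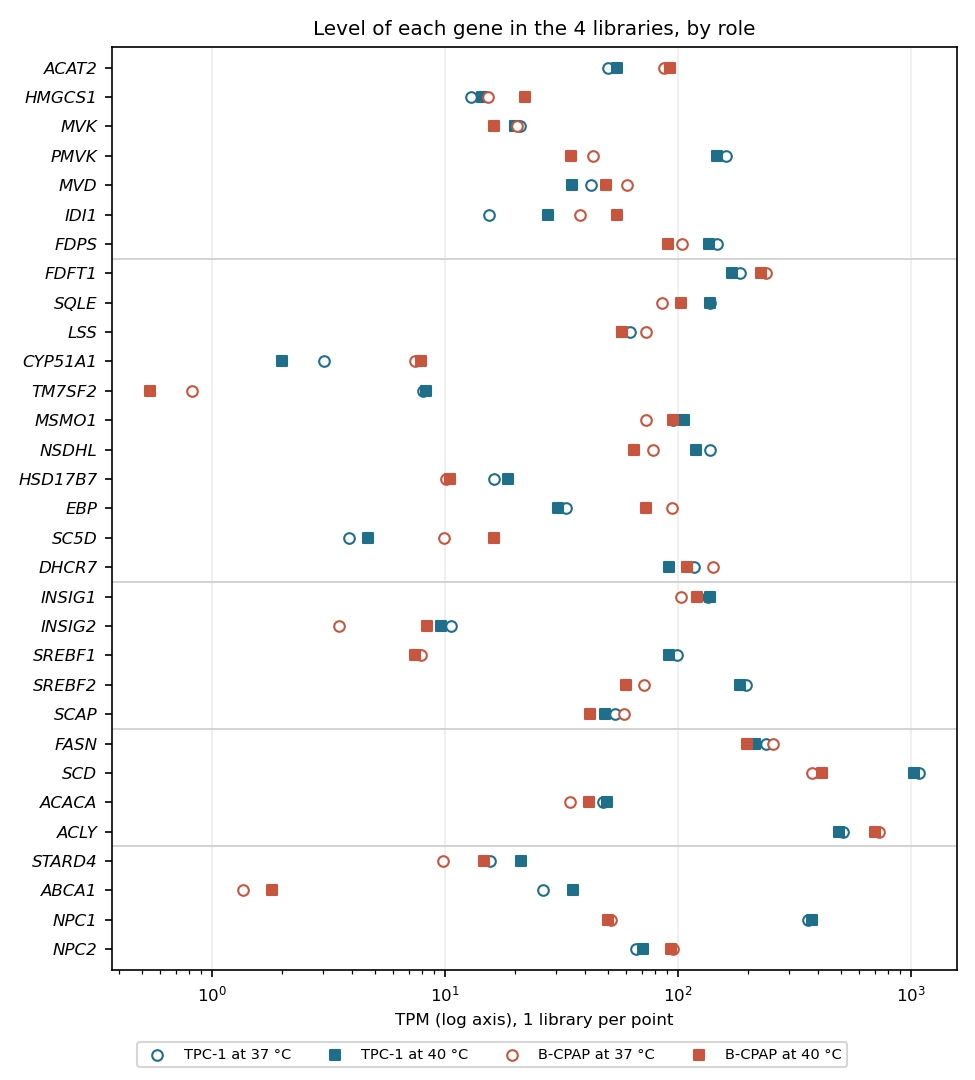
TPM on a log axis for each of the 31 genes, 1 point per library, with open circles at 37 °C and filled squares at 40 °C, blue for TPC-1 and red for B-CPAP; grey lines separate mevalonate enzymes, squalene to cholesterol, regulators, fatty acid synthesis and transport. SREBF1, ABCA1, NPC1, PMVK and TM7SF2 show the lines far apart, while the temperatures lie close together for most genes.

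Between the lines, most regulators and transport genes were lower in B-CPAP than in TPC-1, while the synthesis enzymes differed in both directions. The widest gaps at 37 °C were those of ABCA1, which was 19.6-fold lower in B-CPAP, and of SREBF1, which was 12.6-fold lower. B-CPAP was compared with TPC-1 over both temperatures by limma on log2(TPM + 1), with temperature as a block and Benjamini-Hochberg adjustment over all 14912 tested genes. Of the 31 genes, 10 were higher in B-CPAP at an adjusted p under 0.05 (29.9% of all tested genes were) and 14 were lower (32.8% of all tested genes). The members' share called, 24 of 31, thus lay beside 62.7% of all tested genes in either direction. The median log2 difference of the 31 genes was -0.27, against -0.05 for all tested genes. At 2-fold or more, 4 of the 31 were higher (15.7% of all tested genes) and 7 were lower (17.2%).

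Among the regulators, 3 of 5 were lower in B-CPAP and none was higher. SREBF1 (ENSG00000072310, chromosome 17, 17810399 to 17837002, on GRCh38 in GENCODE 29, as for all genes here), which encodes SREBP-1 and its forms that drive fatty acid synthesis, stood at 99.3 and 91.5 TPM in the TPC-1 libraries at 37 and 40 °C and 7.89 and 7.46 TPM in the B-CPAP libraries. The TPC-1 libraries were both above the B-CPAP libraries, 12.6-fold at 37 °C and 12.3-fold at 40 °C (log2 difference -3.47 ± 0.11 SE, limma adjusted p = 4.2e-05). Its rank among the 31 genes was 13 in both TPC-1 libraries and 27 and 29 in B-CPAP. SREBF2 (ENSG00000198911, chromosome 22, 41833079 to 41907308), which encodes the factor mainly tied to cholesterol synthesis, stood at 195 TPM (37 °C) and 186 TPM (40 °C) for TPC-1, beside 71.5 and 60.05 TPM for B-CPAP. The lines did not overlap, and SREBF2 was 2.73-fold and 3.10-fold lower in B-CPAP (log2 difference -1.53 ± 0.09 SE, limma adjusted p = 0.000193). The TPM ratio of SREBF2 to SREBF1 was 1.97 and 2.03 in TPC-1 but 9.06 and 8.05 in B-CPAP. INSIG1 was also lower in B-CPAP (log2 difference -0.28 ± 0.09 SE, limma adjusted p = 0.0428). INSIG2 and SCAP were not called, with adjusted p = 0.0727 and 0.735.

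Of the 4 fatty acid synthesis enzymes, 1 was higher in B-CPAP, 2 were lower and 1 was not called. SCD stood at 1080.2 and 1035 TPM in the TPC-1 libraries at 37 and 40 °C and 377 and 415 TPM in the B-CPAP libraries. Both B-CPAP libraries were below both TPC-1 libraries, 2.87-fold at 37 °C and 2.49-fold at 40 °C (log2 difference -1.42 ± 0.07 SE, limma adjusted p = 0.00014). FASN stood at 240.0 TPM (37 °C) and 215 TPM (40 °C) for TPC-1, beside 255 and 198 TPM for B-CPAP, and the levels of the lines overlapped (log2 difference -0.02 ± 0.08 SE, adjusted p = 0.874). ACLY was higher in B-CPAP (log2 difference 0.51 ± 0.06 SE, limma adjusted p = 0.00143), and ACACA, the carboxylase that makes malonyl-CoA, was lower (log2 difference -0.36 ± 0.11 SE, limma adjusted p = 0.0329). The TPM ratio of SCD to FASN was 4.50 and 4.80 in TPC-1 and 1.48 and 2.10 in B-CPAP.

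Of the 4 transport genes, 3 were lower in B-CPAP. ABCA1 (ENSG00000165029, chromosome 9, 104781002 to 104928237), the membrane pump that hands cholesterol to lipoproteins outside the cell, stood at 26.5 and 35.6 TPM in the TPC-1 libraries at 37 and 40 °C and 1.36 and 1.81 TPM in the B-CPAP libraries. Both TPC-1 libraries lay far above both of B-CPAP. ABCA1 was 19.6-fold lower in B-CPAP at 37 °C and 19.6-fold lower at 40 °C (log2 difference -3.62 ± 0.15 SE, limma adjusted p = 7.71e-05). NPC1 (ENSG00000141458, chromosome 18, 23506184 to 23586898), the lysosomal membrane protein that passes cholesterol out of the lysosome, stood at 363 TPM (37 °C) and 378 TPM (40 °C) for TPC-1, beside 51.8 and 49.98 TPM for B-CPAP. The lines were again apart, with B-CPAP 7.02-fold and 7.57-fold below TPC-1 (log2 difference -2.84 ± 0.08 SE, limma adjusted p = 3.47e-05). NPC2, the soluble lysosomal partner that hands cholesterol to NPC1, went the other way and was higher in B-CPAP (log2 difference 0.46 ± 0.09 SE, limma adjusted p = 0.00793). The NPC1 to NPC2 ratio in TPM was 5.51 and 5.35 in TPC-1 and 0.542 and 0.535 in B-CPAP. STARD4, a cytosolic sterol carrier, was lower in B-CPAP (log2 difference -0.56 ± 0.13 SE, limma adjusted p = 0.0132).

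Among the 7 mevalonate enzymes, 3 were higher and 2 lower in B-CPAP. PMVK (ENSG00000163344, chromosome 1, 154924734 to 154936991), which adds the second phosphate to mevalonate, stood at 162 and 147 TPM in the TPC-1 libraries at 37 and 40 °C and 43.2 and 34.8 TPM in the B-CPAP libraries. Without overlap, B-CPAP was 3.74-fold and 4.23-fold lower (log2 difference -1.96 ± 0.09 SE, limma adjusted p = 0.000112). MVK, the kinase one step before it, was not called (adjusted p = 0.319), with 21.1 TPM (37 °C) and 19.96 TPM (40 °C) for TPC-1, beside 20.5 and 16.2 TPM for B-CPAP. IDI1 (ENSG00000067064, chromosome 10, 1039152 to 1049170), the isomerase that makes the reactive isoprenoid unit, stood at 15.6 and 27.7 TPM in the TPC-1 libraries at 37 and 40 °C and 38.2 and 54.7 TPM in the B-CPAP libraries. Both B-CPAP libraries stood above both of TPC-1, and IDI1 was 2.46-fold higher in B-CPAP at 37 °C and 1.98-fold higher at 40 °C (log2 difference 1.10 ± 0.12 SE, limma adjusted p = 0.00125). ACAT2, which joins acetyl-CoA units at the start of the route, and the decarboxylase MVD were higher in B-CPAP by log2 differences of 0.77 and 0.49, and the farnesyl phosphate synthase FDPS was lower (log2 difference -0.53). HMGCS1, which makes the precursor of mevalonate, was not called (adjusted p = 0.0615).

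The 11 enzymes from squalene to cholesterol were split, with 5 higher and 4 lower in B-CPAP. TM7SF2 (ENSG00000149809, chromosome 11, 65111845 to 65116384) stood at 8.10 TPM (37 °C) and 8.33 TPM (40 °C) for TPC-1, beside 0.826 and 0.545 TPM for B-CPAP. The B-CPAP values came from 21 and 13 reads, and lay 9.81-fold and 15.3-fold below those of TPC-1 (log2 difference -2.46 ± 0.20 SE, limma adjusted p = 0.000496). EBP (ENSG00000147155, chromosome X, 48521158 to 48528716), a sterol isomerase, stood at 33.1 and 30.5 TPM in the TPC-1 libraries at 37 and 40 °C and 94.4 and 73.01 TPM in the B-CPAP libraries. It was 2.85-fold and 2.39-fold higher in B-CPAP (log2 difference 1.36 ± 0.11 SE, limma adjusted p = 0.000468). SC5D (ENSG00000109929, chromosome 11, 121292453 to 121308694), the desaturase of a late step, stood at 3.88 TPM (37 °C) and 4.67 TPM (40 °C) for TPC-1, beside 9.92 and 16.3 TPM for B-CPAP, 2.56-fold and 3.50-fold higher in B-CPAP (log2 difference 1.39 ± 0.18 SE, limma adjusted p = 0.00203). CYP51A1 (ENSG00000001630, chromosome 7, 92112151 to 92134803), whose exons other genes overlap, was 2.46-fold and 3.95-fold higher in B-CPAP (log2 difference 1.32 ± 0.20 SE, limma adjusted p = 0.00371). In each of these genes both libraries of 1 line lay above both of the other. The squalene synthase FDFT1 and DHCR7, which makes cholesterol in a last step, were also higher in B-CPAP, by log2 differences of 0.40 and 0.26. The squalene epoxidase SQLE, the dehydrogenase NSDHL and the ketoreductase HSD17B7 were lower (-0.55, -0.83 and -0.70). The lanosterol synthase LSS and the methylsterol oxidase MSMO1 were not called (adjusted p = 0.403 and 0.0571).

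**Figure D2:**
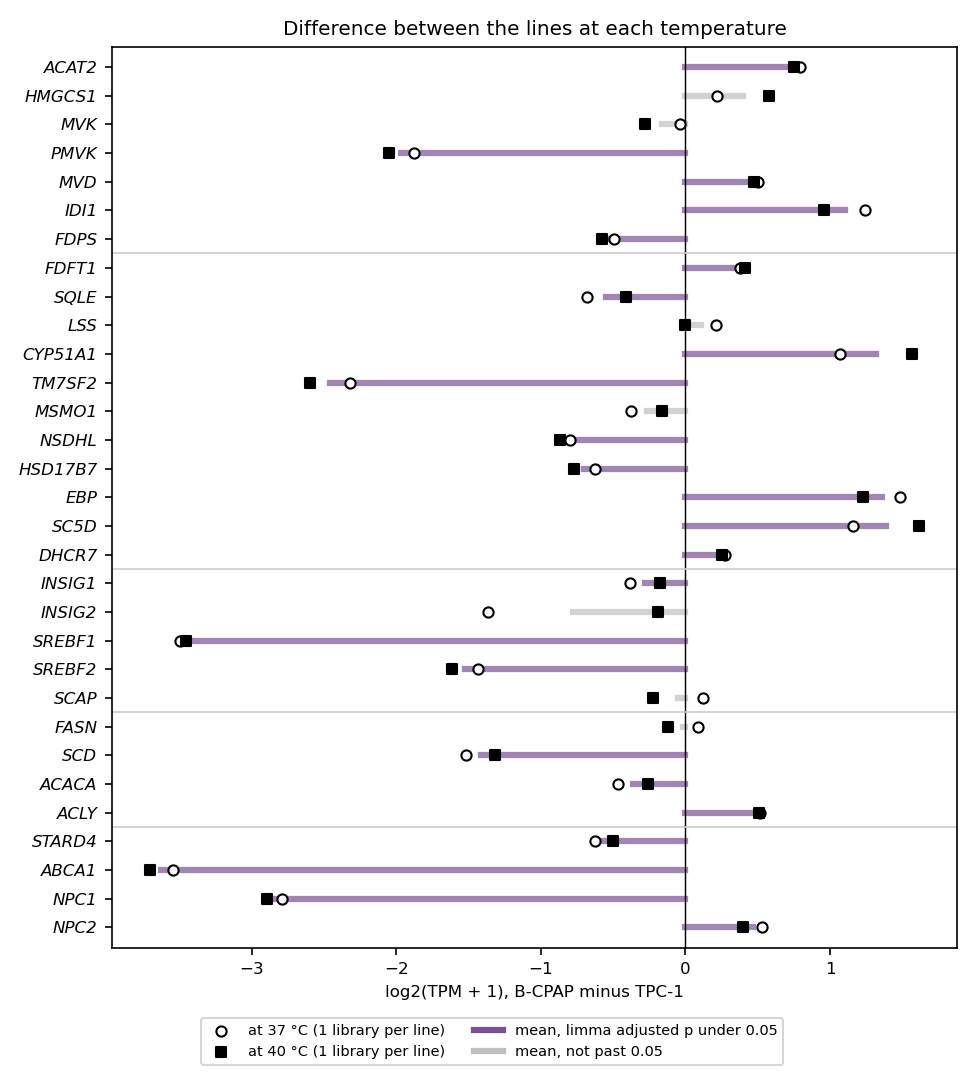
Difference in log2(TPM + 1), B-CPAP minus TPC-1, at 37 °C (open circles) and 40 °C (black squares), with bars at the mean, purple where limma's adjusted p was under 0.05 and grey where it was not. The bars of SREBF1, ABCA1 and NPC1 reach from -2.84 to -3.62, and the point at 37 °C and the point at 40 °C lie on 1 side of 0 in all 24 genes called.

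These p-values set the difference between lines against how far it differed between the temperatures, and leave out any spread between cultures. limma draws each gene's spread toward a trend over all tested genes, so an SE is not the gene's own spread alone. In fits without 1 library, which have no block and assume that a lone sample varies like the other line's, 7 members were called without TPC-1 at 37 °C (20.2% of all tested genes were), 7 without TPC-1 at 40 °C (19.5%), 12 without B-CPAP at 37 °C (34.2%) and 13 without B-CPAP at 40 °C (38.4%). PMVK, TM7SF2, SREBF1, SREBF2, SCD, ABCA1 and NPC1 were called lower in all 4 of these fits. Outside these fits, at least 1 alternative setting ended the call of MVD, DHCR7, INSIG1, STARD4 or ACACA, and at least 1 made a call of HMGCS1, MSMO1 or INSIG2. Markers of fibroblasts, epithelial cells and thyroid follicular cells also differed between the lines. The summed level of 5 fibroblast markers, 4 of them with a mean of at least 1 TPM, was 9.13 and 9.56 TPM in TPC-1 and 31.1 and 34.3 TPM in B-CPAP, with COL3A1 and DCN at 0 in TPC-1. COL1A1, COL1A2 and COL3A1 were higher in B-CPAP, DCN reached at most 0.159 TPM there, and PDGFRB was lower, at 4.15 and 4.65 TPM against 6.19 and 6.72 TPM in TPC-1. The sum of 6 epithelial markers, 3 of them with a mean of at least 1 TPM, was 457 and 381 TPM in TPC-1 and 1560.0 and 1205 TPM in B-CPAP, with CDH1 at 0.0439 TPM or less in every library. KRT7, KRT8 and EPCAM were higher in B-CPAP, KRT7 by the most (4.84 and 5.15 TPM against 754 and 589 TPM), while KRT18 and KRT19 were lower, KRT18 at 235 and 183 TPM against 283 and 236 TPM. The sum of 7 thyroid markers, again 3 with such a mean, was 295 and 275 TPM against 128 and 113 TPM. PAX8 made up most of that sum, at 284 and 267 TPM in TPC-1 against 112 and 98.9 TPM in B-CPAP. FOXE1 and TG were also lower in B-CPAP, while NKX2-1 was higher, at 0 TPM in TPC-1 against 8.60 and 7.90 TPM. The part of these markers in the members' differences was not tested.

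Between 37 and 40 °C no member passed the test, and the members with GC-poor exons mostly stood higher at 40 °C and those with GC-rich exons lower. The median log2 difference of the 31 was -0.06 in TPC-1 and -0.05 with B-CPAP, against 0.03 and 0.09 for all tested genes. At 40 °C against 37 °C over both lines, 0 of the 31 were called by limma with the line as a block, as was the case for 0% of all 14912 tested genes; the smallest adjusted p of any gene was 0.0871, and the smallest among the members was 0.218. At an unadjusted p under 0.05, 7 of the 31 stood out (MVD, IDI1, MSMO1, NSDHL, DHCR7, STARD4 and FASN), beside 19.5% of all tested genes. When genes that do not encode proteins were left out of the same fit, IDI1 and STARD4 were called higher at 40 °C and DHCR7 and FASN lower (adjusted p = 0.00674, 0.0477, 0.0169 and 0.0450). Of all 11824 genes in that fit, 880 were called higher and 470 lower. None of the 31 was called in that fit once GC content was adjusted for. Within a line each temperature has 1 library, so temperature and library cannot be told apart and the values below carry no test. The mitochondrial share of TPM was also higher at 40 °C in both lines, and with TPM rescaled without those genes the direction turned for SQLE in TPC-1 and NPC2 in B-CPAP.

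Among the members, 10 had exons with under 45% GC. Of these, 7 stood higher at 40 °C in TPC-1 and 10 in B-CPAP, with median log2 differences of 0.15 and 0.44. All tested protein-coding genes of that GC range had medians of 0.16 and 0.42, and 81.1% of them stood higher in TPC-1 and 95.6% in B-CPAP. Of the 10 members with at least 55% GC, 1 stood higher at 40 °C in TPC-1 and none in B-CPAP, with medians of -0.13 and -0.31, beside -0.14 and -0.26 for all genes of that range. Among all genes of that range, 20.3% stood higher in TPC-1 and 12.6% in B-CPAP. The 11 members between these limits had medians of -0.06 and -0.05, against 0.00 and 0.04. Spearman's rho between GC content and the log2 difference was -0.604 (TPC-1) and -0.879 (B-CPAP) for the 31 genes, and -0.593 and -0.809 over 11819 protein-coding genes, where the points of a panel share the same pair of libraries. The members' medians thus lay beside those of other genes in each GC range, and what gave this trend with GC content was not tested.

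**Figure D3:**
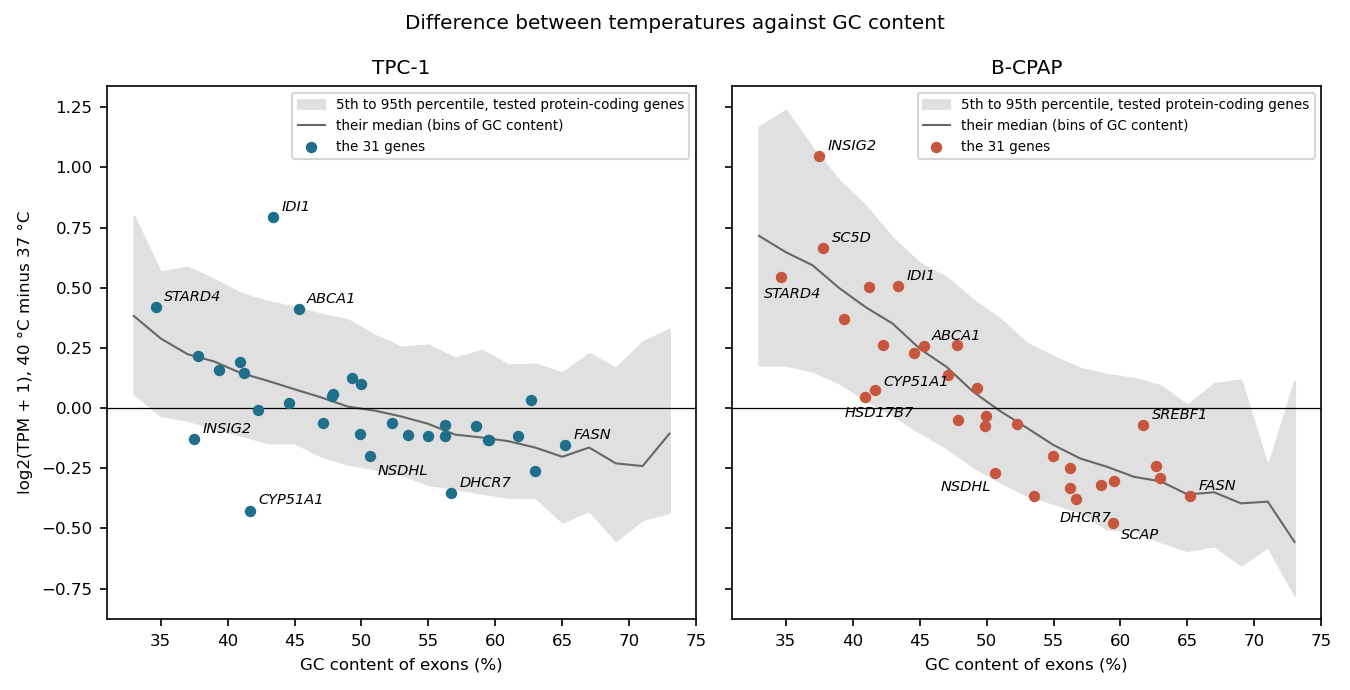
Difference in log2(TPM + 1), 40 °C minus 37 °C, against the GC content of exons for the 31 genes (points) in TPC-1 and B-CPAP; the line and grey band give the median and the 5th to 95th percentile of all tested protein-coding genes in bins of GC content. Most points lie inside the band; in TPC-1 IDI1 at 0.79 lies above it and CYP51A1 at -0.43, DHCR7 at -0.35 and INSIG2 at -0.13 below it, and in B-CPAP INSIG2 at 1.05 lies at its upper edge.

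Counted without regard to GC content, 3 members (IDI1, STARD4 and ABCA1) were higher at 40 °C in TPC-1 by at least 0.32 on the log2 scale (14.9% of all tested genes were) and CYP51A1 and DHCR7 were lower by as much (6.32%). In B-CPAP, 6 were higher (30.2%), namely HMGCS1, IDI1, MSMO1, SC5D, INSIG2 and STARD4, and 5 were lower (13.2%), namely LSS, EBP, DHCR7, SCAP and FASN. IDI1 and STARD4 were higher to that extent in both lines (7.69% of all tested genes) and DHCR7 was lower in both (2.08%). The exact 95% intervals of the TPM ratio cover counting error only. By them, 7 members lay above 1 in TPC-1 (21.5% of all tested genes) and 14 below (16.1%). In B-CPAP, 12 lay above 1 (36.4%) and 13 below (21.8%). Such intervals narrow as reads rise, and the members were not matched with other genes for reads. ACLY, from 16190 and 14805 reads, lay below 1 in TPC-1 at a ratio of 0.957. Each member was then set against the median of the 400 tested protein-coding genes nearest to it in GC content. By that measure IDI1 and ABCA1 stood at least 0.32 above their like in TPC-1 (5.63% of genes did) and CYP51A1 and INSIG2 below (2.36%). In B-CPAP only INSIG2 stood above (8.54%) and only HSD17B7 below (5.02%). No member passed in the same direction in both lines (1.13% above and 0.22% below among protein-coding genes). The median of the 31 differences from genes of like GC, on the log2 scale, was 0.00 (TPC-1) and -0.06 (B-CPAP).

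IDI1, at 43.4% GC, had the largest difference above its like. From the levels given above, its TPM ratio of 40 to 37 °C was 1.78 (interval 1.57 to 2.01) in TPC-1 and 1.43 (interval 1.33 to 1.54) in B-CPAP. Both 40 °C libraries stood above the 37 °C library of their line. On the log2(TPM + 1) scale it exceeded genes of like GC by 0.69 in TPC-1, above all 400, and by 0.19 in B-CPAP, above 331 of the 400. The other mevalonate enzymes lay between -0.10 and 0.12 from their like in both lines. HMGCS1, at 41.2% GC, stood at 13.00 and 14.5 TPM in the TPC-1 libraries at 37 and 40 °C and 15.3 and 22.1 TPM in the B-CPAP libraries, which differed from genes of like GC by 0.01 and 0.10.

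The enzymes from squalene to cholesterol lay mostly below genes of like GC, with 2 of 11 above that median in TPC-1 and 2 of 11 in B-CPAP and medians of -0.06 and -0.16. Of all 31 genes, 16 and 10 lay above it, as did 5907 and 5910 of 11819 tested protein-coding genes. DHCR7 (ENSG00000172893, chromosome 11, 71428193 to 71452868), at 56.7% GC, stood at 117 TPM (37 °C) and 91.4 TPM (40 °C) for TPC-1, beside 142 and 109 TPM for B-CPAP. Both 40 °C libraries were lower, with ratios of 0.781 (interval 0.739 to 0.826) in TPC-1 and 0.768 (interval 0.734 to 0.804) in B-CPAP. It lay -0.24 and -0.18 from genes of like GC on the log2 scale, and 8 and 40 of the 400 lay lower still. NSDHL, at 50.6% GC, stood at 138 and 119.7 TPM in the TPC-1 libraries at 37 and 40 °C and 78.6 and 65.1 TPM in the B-CPAP libraries, with -0.20 and -0.27 from its like. CYP51A1, at 41.7% GC, stood at 3.05 TPM (37 °C) and 2.01 TPM (40 °C) for TPC-1, beside 7.48 and 7.94 TPM for B-CPAP. Its ratio in TPC-1, 0.660 (interval 0.441 to 0.996), came from 66 and 42 reads, and its ratio in B-CPAP was 1.06 (interval 0.868 to 1.30); it lay -0.57 and -0.31 from genes of like GC. HSD17B7 stood at 16.2 and 18.7 TPM in the TPC-1 libraries at 37 and 40 °C and 10.1 and 10.5 TPM in the B-CPAP libraries. Its ratios were 1.15 (interval 1.01 to 1.31) and 1.04 (interval 0.893 to 1.20), so that it lay near its like in TPC-1 (0.05) and below it in B-CPAP (-0.37). For the remaining enzymes, SQLE, FDFT1, LSS, TM7SF2, MSMO1, EBP and SC5D, the difference from genes of like GC ran from -0.14 to 0.20 in TPC-1 and from -0.27 to 0.11 in B-CPAP.

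Of the regulators, INSIG2 differed most between the lines in how it stood at 40 °C. INSIG2 (ENSG00000125629, chromosome 2, 118088452 to 118110997), an anchor of SCAP in the endoplasmic reticulum with 37.5% GC, stood at 10.7 TPM (37 °C) and 9.68 TPM (40 °C) for TPC-1, beside 3.53 and 8.36 TPM for B-CPAP. The B-CPAP library at 37 °C was the low one, from 104 reads, and the other three were close together. Its ratios were 0.907 (interval 0.754 to 1.09) for TPC-1 and 2.37 (interval 1.87 to 3.02) for B-CPAP. From genes of like GC it lay -0.36 (TPC-1) and 0.46 (B-CPAP). A difference between the lines was not tested, and with a pseudocount of 5 the log2 difference in B-CPAP was 0.65 in place of 1.05. INSIG1, its homologue and itself a target of SREBP, stood at 135 and 137 TPM in the TPC-1 libraries at 37 and 40 °C and 103 and 121 TPM in the B-CPAP libraries, -0.07 and -0.02 from its like. The TPM ratio of INSIG1 to INSIG2 was 12.7 and 14.2 in TPC-1, 29.2 in B-CPAP at 37 °C and 14.5 in B-CPAP at 40 °C. SREBF1 lay 0.03 and 0.22 from genes of like GC, SREBF2 0.03 and -0.07. SCAP stood at 53.8 TPM (37 °C) and 48.9 TPM (40 °C) for TPC-1, beside 58.6 and 41.9 TPM for B-CPAP, and lay 0.00 and -0.23 from its like.

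The fatty acid enzymes lay between -0.10 and 0.14 from genes of like GC in both lines. FASN, at 65.2% GC the richest of the 31, had ratios of 0.898 (interval 0.876 to 0.920) in TPC-1 and 0.774 (interval 0.757 to 0.792) in B-CPAP. Both lines had the lower level at 40 °C, and FASN lay 0.04 and -0.01 from its like. SCD had ratios of 0.958 (interval 0.944 to 0.973) and 1.10 (interval 1.08 to 1.13), on opposite sides of 1. Among the transport genes, STARD4, at 34.6% GC the poorest of the 31, stood at 15.7 and 21.3 TPM in the TPC-1 libraries at 37 and 40 °C and 9.81 and 14.8 TPM in the B-CPAP libraries. Its ratios, 1.36 (interval 1.21 to 1.52) in TPC-1 and 1.51 (interval 1.33 to 1.71) in B-CPAP, put both 40 °C libraries above their 37 °C library. Under quantile normalization its log2 difference in B-CPAP was 0.35 in place of 0.54. It lay 0.16 and -0.10 from genes of like GC. ABCA1, at 45.3% GC, had ratios of 1.34 (interval 1.26 to 1.43) and 1.34 (interval 1.04 to 1.72), the latter from 115 and 144 reads. It lay 0.34 above its like in TPC-1, higher than 381 of the 400, and 0.02 in B-CPAP. NPC1 and NPC2 lay 0.03 and 0.10 from their like in TPC-1 and -0.17 and -0.06 in B-CPAP.

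**Figure D4:**
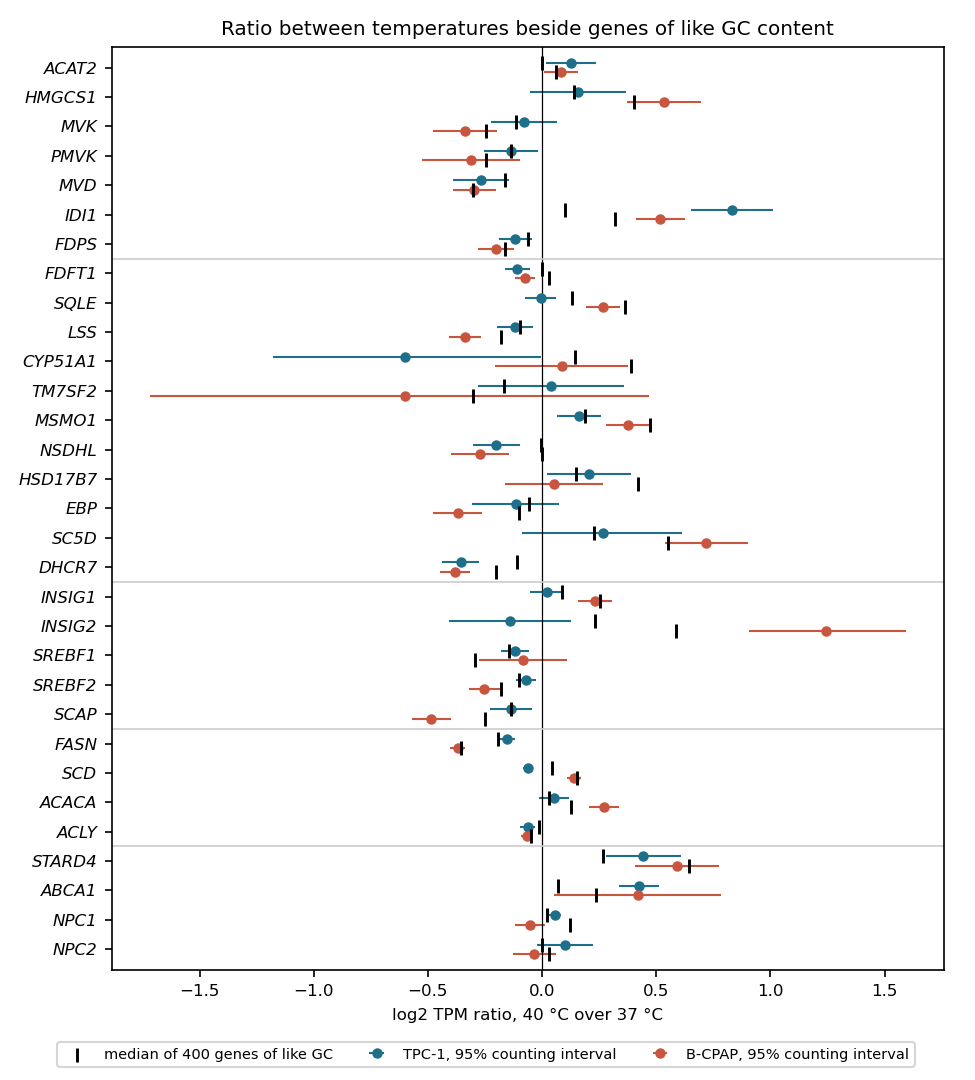
TPM ratio of 40 °C over 37 °C on a log2 scale for each gene, blue for TPC-1 and red for B-CPAP, with 95% counting intervals; the black tick beside each point is the median difference in log2(TPM + 1) of the 400 genes of like GC content. IDI1 in TPC-1 stands to the right of its tick, at a ratio of 1.78, and both points of DHCR7 stand to the left of theirs.

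Promoter sequence adds a feature that the choice of genes did not use. The windows are those of RefSeq on GRCh38.p14, from 250 bases before a gene's start to 50 after, and 27 of the 31 genes had at least 1, with 37 windows in all. CCAAT, the letters bound by NF-Y, a common partner of SREBP, occurred on either strand in 24 of the 37 windows (64.9%), against 34.6% of all 35116 windows and 34.7% of windows of tested protein-coding genes. By gene it occurred in 20 of 27 members (74.1%) and in 43.6% of tested protein-coding genes. TCACNCCAC, the form of the sterol regulatory element searched for, occurred in 1 member window, that of SREBF2, and in 1.13% of all windows. The E-box CACGTG occurred in 6 member windows (16.2%), of ABCA1, INSIG1, LSS, SC5D and SCAP, in 7.26% of all windows and in 9.48% of those of tested protein-coding genes. By gene that was 5 of 27 members (18.5%) and 12.9% of tested protein-coding genes. Different motifs do not overlap in the windows shown, but in IDI1 a CCAAT match on each strand shares letters. A match is a description of letters, and no match says only that they are not in the window.

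The 250 bases before the start are printed for the pair of SREBP genes, whose levels set the lines apart, and for 4 members whose values by temperature are described above. They read 5′ to 3′ on the gene's strand, with the motif letters of either strand in capitals. The windows are SREBF2 chr22:41832855-41833104 (plus strand), SREBF1 chr17:17836987-17837236 (minus strand), IDI1 chr10:1048887-1049136 (minus strand), STARD4 chr5:111512536-111512785 (minus strand), DHCR7 chr11:71448394-71448643 (minus strand) and ABCA1 chr9:104928156-104928405 (minus strand). IDI1 has 3 windows in the table and DHCR7 has 2, and the one with the most CCAAT matches is shown for each.
SREBF2: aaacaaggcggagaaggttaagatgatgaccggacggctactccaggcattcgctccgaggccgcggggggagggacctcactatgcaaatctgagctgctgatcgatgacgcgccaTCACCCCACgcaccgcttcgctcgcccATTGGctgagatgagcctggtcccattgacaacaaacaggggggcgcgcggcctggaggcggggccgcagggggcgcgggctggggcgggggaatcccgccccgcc
SREBF1: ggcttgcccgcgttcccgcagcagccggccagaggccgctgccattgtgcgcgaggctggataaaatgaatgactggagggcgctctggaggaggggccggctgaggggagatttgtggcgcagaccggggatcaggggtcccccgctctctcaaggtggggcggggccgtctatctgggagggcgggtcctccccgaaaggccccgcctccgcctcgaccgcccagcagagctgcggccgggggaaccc
IDI1: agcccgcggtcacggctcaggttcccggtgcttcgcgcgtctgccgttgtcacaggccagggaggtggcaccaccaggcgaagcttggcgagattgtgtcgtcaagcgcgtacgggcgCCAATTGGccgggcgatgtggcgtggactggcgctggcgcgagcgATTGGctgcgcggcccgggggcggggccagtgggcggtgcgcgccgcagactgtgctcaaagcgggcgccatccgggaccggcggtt
STARD4: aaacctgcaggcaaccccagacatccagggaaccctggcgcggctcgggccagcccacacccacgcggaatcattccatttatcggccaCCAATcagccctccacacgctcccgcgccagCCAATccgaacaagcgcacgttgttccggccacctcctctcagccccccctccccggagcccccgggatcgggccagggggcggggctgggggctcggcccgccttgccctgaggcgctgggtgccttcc
DHCR7: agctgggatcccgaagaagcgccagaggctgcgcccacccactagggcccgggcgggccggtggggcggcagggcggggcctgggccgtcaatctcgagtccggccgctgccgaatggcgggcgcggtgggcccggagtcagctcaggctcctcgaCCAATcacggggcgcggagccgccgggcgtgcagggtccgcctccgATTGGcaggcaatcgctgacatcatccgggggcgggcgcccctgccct
ABCA1: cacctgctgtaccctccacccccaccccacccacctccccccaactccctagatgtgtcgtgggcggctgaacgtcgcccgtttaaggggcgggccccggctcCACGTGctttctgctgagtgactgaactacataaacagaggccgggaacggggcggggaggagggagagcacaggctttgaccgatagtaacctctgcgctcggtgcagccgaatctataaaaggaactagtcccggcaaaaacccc
SREBF2 holds the sterol element, followed by CCAAT on the other strand. SREBF1, the member with the widest gap between lines among the regulators, holds none of the 3 motifs here. IDI1 and STARD4, higher at 40 °C in both lines, and DHCR7, lower in both, all hold CCAAT in the window shown. For IDI1 and DHCR7 that window was picked for its CCAAT matches, and each also has a window with 0 matches. By gene, 43.6% of tested protein-coding genes hold CCAAT. ABCA1 holds the E-box alone.

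In the lists of other pathway genes below, counts between lines stand beside 29.9% of all tested genes called higher in B-CPAP and 32.8% called lower. Of 18 genes of fatty acid elongation, desaturation and activation, 3 were higher and 7 lower in B-CPAP by limma, and none was called between temperatures. The elongation reductase TECR stood at 119.9 TPM (37 °C) and 90.7 TPM (40 °C) for TPC-1, beside 72.7 and 56.1 TPM for B-CPAP, lower at 40 °C in both lines and -0.32 and -0.20 from genes of like GC. FADS1, a desaturase of polyunsaturated fatty acids, lay 0.01 and 0.31 from its like, and the elongase ELOVL7 -0.32 and 0.02. Of 10 genes of SREBP processing and degradation, 1 was higher and 5 lower in B-CPAP, and none was called between temperatures. RNF139, a ubiquitin ligase of the endoplasmic reticulum, stood at 52.97 and 66.8 TPM in the TPC-1 libraries at 37 and 40 °C and 23.3 and 36.9 TPM in the B-CPAP libraries, above genes of like GC by 0.25 and 0.39. PGRMC1 and FBXW7 lay -0.21 and 0.21 from their like in TPC-1 and -0.12 and 0.09 in B-CPAP.

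Of 11 genes of the isoprenoid branch, which leaves the route after FDPS, 4 were higher and 2 lower in B-CPAP, and none was called between temperatures. The farnesyltransferase subunit FNTB lay 0.07 and -0.49 from genes of like GC, DHDDS of dolichol synthesis -0.19 and -0.23, and the synthase GGPS1 0.07 and 0.34. Of 13 tested genes of sterol export, storage and the LXR receptors, 1 was higher and 6 lower in B-CPAP, and none was called between temperatures. OSBPL2, the LXR gene NR1H2 and TSPO lay 0.19, -0.20 and -0.17 from their like in TPC-1 and 0.30, -0.16 and -0.13 in B-CPAP. The 4 genes of these lists with the largest log2 differences between lines are named here after their values were seen. SCD5, the second human stearoyl-CoA desaturase gene, stood at 39.4 TPM (37 °C) and 37.3 TPM (40 °C) for TPC-1, beside 0.792 and 1.52 TPM for B-CPAP. ACSL5, which activates fatty acids, showed the reverse, at 1.17 and 1.19 TPM in the TPC-1 libraries at 37 and 40 °C and 37.5 and 38.8 TPM in the B-CPAP libraries. MYLIP, a ubiquitin ligase under LXR control, stood at 27.4 TPM (37 °C) and 25.3 TPM (40 °C) for TPC-1, beside 0.654 and 1.21 TPM for B-CPAP. SCARB1, a receptor for high-density lipoprotein, stood at 10.2 and 11.6 TPM in the TPC-1 libraries at 37 and 40 °C and 78.9 and 68.8 TPM in the B-CPAP libraries. limma called all 4 between the lines, with log2 differences of -4.21, 4.17, -3.84 and 2.65 in the order given and adjusted p = 0.000102, 5.55e-05, 0.000132 and 0.000129.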

How the data were processed

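RNA of TPC-1 and B-CPAP was extracted with RNeasy Plus and made into libraries with TruSeq RNA Library Prep Kit v2, which does not mark strand, per the labels' protocols. Per the submitters' processing notes, tools were featureCounts 2.0.0, Trimmomatic 0.38, FastQC and MultiQC, on GRCh38. Sources used here do not give the aligner or the annotation. The authors deposited TPM for 58884 gene IDs in 4 columns, each summing to 1000000. Exon lengths, GC contents and coordinates came from GENCODE 29 on GRCh38, which held 58611 of the IDs.

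Values were analysed as log2(TPM + 1) for genes with a mean of at least 1 TPM, and such fold changes understate those of low genes. limma 3.58.1 (R 4.3.3) compared lines with temperature as a block, and temperatures with line as a block, each with 1 residual degree of freedom, an intensity trend and two-sided tests, and was tested on simulated data. Libraries are not said to come from separate cultures, so p-values measure only the spread between these samples. TPM keeps no depth. TPM times exon length gave near-whole reads (90.5 to 92.0% of values up to 20 reads within 0.02 of a whole read, 65.7 to 68.1% between 20 and 200 reads), and these estimated reads gave exact Clopper-Pearson 95% intervals of ratios between 2 libraries, for counting error only. Temperature differences were set against the median of the 400 protein-coding genes nearest in GC content.

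The 31 genes and the wider lists were chosen with earlier results of these data known. All 31 are named. Values in every library are given for members at least 0.32 on the log2 scale from genes of like GC. They are also given for members that far apart between temperatures, the same way in both lines, or 2-fold apart between lines. Some others are given for comparison. Up to 3 genes of each wider list are named by the size of their mean difference from genes of like GC over both lines. Opposite differences in the lines cancel in that mean. Alternatives were other pseudocounts, filters, normalizations, gene sets, neighbour counts, no block, and leaving out each library. The 4 promoters missing from the RefSeq table were not analysed here. Some marker genes are not reported here.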

Additional observations from a re-analysis of the deposited data

Results flagged for a closer look

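SCD was the 1 member whose counting intervals lay on opposite sides of 1 in the lines, as was the case for 1.72% of all tested genes. Its TPM ratio of 40 to 37 °C was 0.958 for TPC-1 (interval 0.944 to 0.973) and 1.10 for B-CPAP (interval 1.08 to 1.13). The second divided by the first was 1.15. The difference was not tested, since each line has 1 library at each temperature. Under quantile normalization the direction in TPC-1 was the reverse. SCD rested on 35028 and 32061 reads in TPC-1 and 15082 and 15579 in B-CPAP, which makes its intervals narrow. From genes of like GC, SCD lay -0.10 in TPC-1 and -0.01 in B-CPAP on the log2 scale.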

How the results depend on the processing

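The labels number no replicates. The libraries were paired by line or by temperature, as the block of each fit. Without that block 0 members were called between temperatures, as were 0 of all tested genes. Between lines 19 members were called without it, where 3569 of all 14912 tested genes were called higher and 3900 lower. The count of members called between temperatures was 0, but 2 (IDI1 and DHCR7) at a mean of at least 5 TPM and 4 with protein-coding genes only. The first of these settings called 508 of 10112 genes higher and 359 lower. The second called 880 of 11824 genes higher and 470 lower, against 0 in the main fit. The members' count was 0 under the other alternatives, the GC adjustment included. That adjustment of the protein-coding fit was added after seeing the data. The count of members called between lines, 24, ran from 7 to 13 when 1 library was left out and from 19 to 27 otherwise. The 27 were called with protein-coding genes only, where 4024 of 11824 genes were called higher and 4594 lower. In B-CPAP, 11 members passed a log2 difference of 0.32, 10 to 14 under other scalings and filters, and 2 relative to genes of like GC. Within a line, quantile normalization turned the direction of SQLE, TM7SF2 and SCD in TPC-1 and of CYP51A1, HSD17B7, ACLY and NPC2 in B-CPAP; leaving out mitochondrial genes turned that of SQLE in TPC-1 and NPC2 in B-CPAP. INSIG2 in B-CPAP, 1.05 on the log2 scale, was 0.65 with a pseudocount of 5 and 0.89 under quantile normalization, and STARD4 in B-CPAP, 0.54, was 0.35 under the latter. Between lines FASN turned under quantile normalization and without mitochondrial genes, and SCAP without them. Depth limits CYP51A1 in TPC-1 and TM7SF2 and ABCA1 in B-CPAP.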
